A study of Mus musculus with 59 samples.

Results

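Collagens are the main fibre- and sheet-forming proteins of the extracellular matrix, and 24 collagen genes were followed here in the brown adipose tissue (BAT) of mice. They are the genes whose symbol is Col, a number, a and a number, with a mean raw count of at least 10 over the 59 mice of 3 experiments. Of 55341 genes listed, 44 had such a symbol, and 20 of these were below that mean. The members were 8 of 11 fibrillar collagens, 5 of 6 chains of basement membrane collagen IV, 3 of 6 chains of beaded filament collagen VI, 3 of 9 fibril-associated collagens and both multiplexins. Col8a1, Col23a1 and Col28a1 were the only members from the network and anchoring, the transmembrane and the remaining collagens, respectively. Just inside the limit were Col11a2 with a mean of 10.5 counts and Col20a1 with 11.7, and just outside it were Col13a1 with 9.80, Col6a6 with 9.20 and Col16a1 with 8.69.

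All mice were males of the C57BL/6J strain aged 8 to 12 weeks, and each was a separate library. In the thyroid hormone experiment, wild-type (WT) mice received propylthiouracil (PTU), which blocks thyroid hormone synthesis, either alone or followed by a single injection of thyroid hormone (TH), with BAT taken 3, 6, 12 or 24 h after TH. Each of these 5 WT groups had 4 mice, and 5 BATKO mice received PTU alone and 5 PTU and TH with BAT taken at 24 h, so that the controls of both genotypes also carried PTU. In the temperature experiment, control (CTRL) mice were kept at 4 °C (3 mice) or 30 °C (4 mice) and BATKO mice at 4 °C (4 mice) or 30 °C (5 mice), in a table labelled 24 h. In the diet experiment, the diets were chow (4 CTRL and 2 BATKO mice) and a high-fat diet (HFD, 4 CTRL and 3 BATKO mice), in a table labelled 3.5 d. Neither the labels nor the study's text say which gene BATKO mice lack or how it was removed, so the knockout itself was not checked here.

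A collagen molecule is a triple helix of 3 chains, which may be alike or come from different genes. The chains are hydroxylated and folded in the endoplasmic reticulum with the help of the chaperone Serpinh1, trimmed outside the cell by proteases such as Bmp1, and cross-linked by lysyl oxidases. Collagens I, III and V build fibrils, collagen IV builds the basement membrane that surrounds each adipocyte and capillary, and collagen VI forms microfilaments next to that membrane. In adipose tissue, fibroblasts and progenitors are known as the main source of fibrillar collagens, and endothelial cells and adipocytes also make collagen IV.

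The 24 genes together took 0.122% of all counts of the 59 mice pooled, and the 5 most abundant of them over this pool held 69.1% of this collagen total. Col4a1 and Col4a2, the ubiquitous collagen IV chains, held 25.5% and 17.6%. Col3a1 (collagen III) held 13.5%, and Col1a2 and Col1a1 (collagen I) 6.49% and 5.90%. The order differed between experiments: mean normalized counts of Col3a1 lay above those of Col4a2 in WT mice on PTU, and those of Col27a1 above those of Col1a2 in CTRL mice at 30 °C. Counted per kilobase of transcript, which allows genes to be compared, the level in WT mice on PTU was 304 ± 27.2 normalized counts (SD, n = 4) for Col4a1, 224 ± 55.8 for Col3a1, 124 ± 15.0 for Col4a2, 118 ± 25.1 for Col1a2 and 91.5 ± 17.7 for Col1a1. Col4a1, Col3a1 and the next chain stood apart by more than the SD of either neighbour, while Col4a2 and Col1a2 lay within their spread. On the same scale Col6a1 and Col6a2 lay at 74.6 ± 12.0 and 71.8 ± 10.6, also within their spread, Col27a1 at 14.4 ± 4.27, and the rare collagen IV chains Col4a5, Col4a4 and Col4a3 at 3.49 ± 0.20, 1.96 ± 0.90 and 1.48 ± 0.32. In CTRL mice at 30 °C, Col27a1 lay at 236 ± 95.8 normalized counts per kilobase (SD, n = 4), beside 219 ± 38.2 for Col1a2 and 630 ± 118 for Col4a1. The experiments were normalized separately, so that levels set side by side across them are descriptions only.

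As CPM (raw counts scaled to the same library total in every mouse), the summed level of the 24 genes lay between 470 and 626 in WT mice on PTU, between 775 and 1054 in BATKO mice on PTU, and between 1434.5 and 1922 in CTRL mice on chow. It was between 708 and 798 at 3 h after TH in WT mice, above every WT mouse on PTU, and overlapped with them at 6, 12 and 24 h. It lay between 2097 and 3318.5 in CTRL mice on HFD, above every CTRL mouse on chow.

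**Figure D1:**
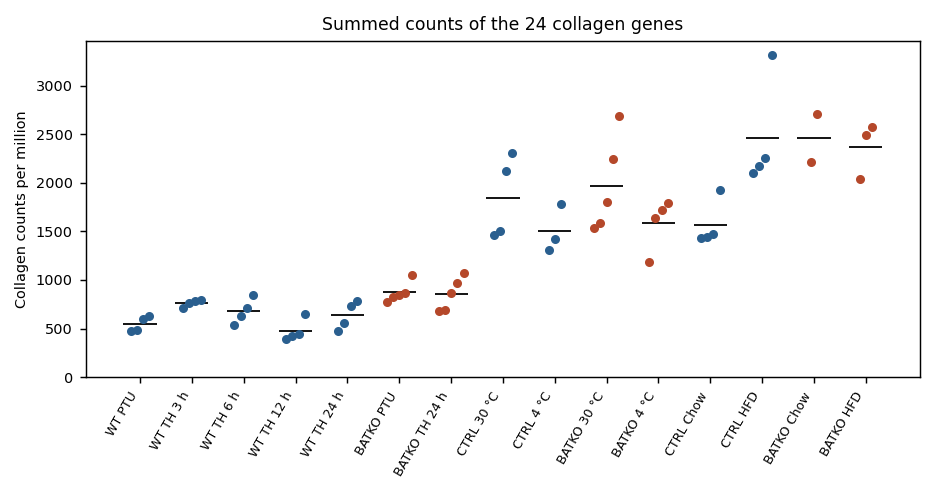
Summed level of the 24 collagen genes in CPM (vertical axis) in the 15 groups, with 1 point per mouse, sorted by value within a group, and a line at the group mean (blue, WT and CTRL; red, BATKO). CTRL mice on HFD lie between 2097 and 3318.5, above the chow mice, which lie between 1434.5 and 1922.

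Total counts ranged from 7612059 to 18073627 per mouse (median 11349606). Markers of brown adipocytes (6 genes, among them Ucp1) were present in every library, at 6717 to 24758 summed CPM, and markers of cartilage and tendon were nearly absent, at most 5.4 CPM. Skeletal muscle markers (6 genes, among them Ckm and Acta1) ranged from 11.9 to 9687.5 CPM between mice. They exceeded 1000 CPM in 10 mice, of which 2 were CTRL mice on chow, 2 CTRL mice and 2 BATKO mice at 30 °C, and 1 each in the BATKO 4 °C, BATKO HFD, WT TH 6 h and WT TH 24 h groups. The part of these markers in the results was not tested beyond repeating each count without these 10 mice. In whole tissue, fewer cells of a type and less RNA per cell cannot be told apart. Whether mice of a group came from separate litters or cages is not stated, and p-values measure the spread between these mice.

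After TH in WT mice, few of the 24 collagen genes changed, and Col27a1 rose the most of those tested. The 4 mice on PTU were the controls at every time, by edgeR's quasi-likelihood test over all genes, with an adjusted p below 0.05 as the threshold. Of the 21 members tested, 3 rose and 1 fell at 3 h, 2 rose and 2 fell at 6 h, 1 rose and 3 fell at 12 h, and 2 rose and 2 fell at 24 h. Over the 13003 genes tested, 5.1% rose and 4.09% fell at 3 h, and 12.1% rose and 10.9% fell at 6 h. At 12 h 13.6% rose and 12.1% fell, and at 24 h 17.2% rose and 15.5% fell. With 4 of 21 members past the threshold at each time, the members' share was above that of all genes at 3 h and below it at 6, 12 and 24 h, since more of all genes passed at the later times. The median log2 fold change of the members was 0.20 at 3 h and -0.17 at 12 h, against 0.01 and -0.02 for all genes. Col28a1, Col20a1 and Col11a2 were too low in the WT mice to be tested. Summed markers of fibroblasts and progenitors (8 genes, among them Pdgfra and Dpt) were 124 to 188 CPM on PTU and 196 to 291 at 3 h, with 2 of 8 higher (Thy1 and Ly6a). At 12 h they were 123 to 195 CPM, with 1 of 8 higher (Thy1) and 3 lower, among them Dpp4 (log2 fold change -1.39 ± 0.40) and Dpt (-0.53 ± 0.16). Brown adipocyte markers were 12815 to 15203 CPM on PTU and 12044 to 23460 at 24 h, with 2 of 6 higher and 4 lower, among them Adipoq (log2 fold change -2.14 ± 0.13). The part of these cells in the result was not tested.

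The counts at 6 and 12 h depended on single mice, and that at 3 h on the mice in the fit. At 3 h, 7 members passed in a fit of only the 2 groups compared and 2 in a fit of all 30 mice of the experiment. At 6 h, 7 passed without WT TH 6 h mouse B13. At 12 h, 2 passed without WT PTU mouse B2 or WT TH 12 h mouse B20 or B21, and 7 without WT TH 12 h mouse B23. In each of these fits Col27a1 passed the threshold.

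**Figure D2:**
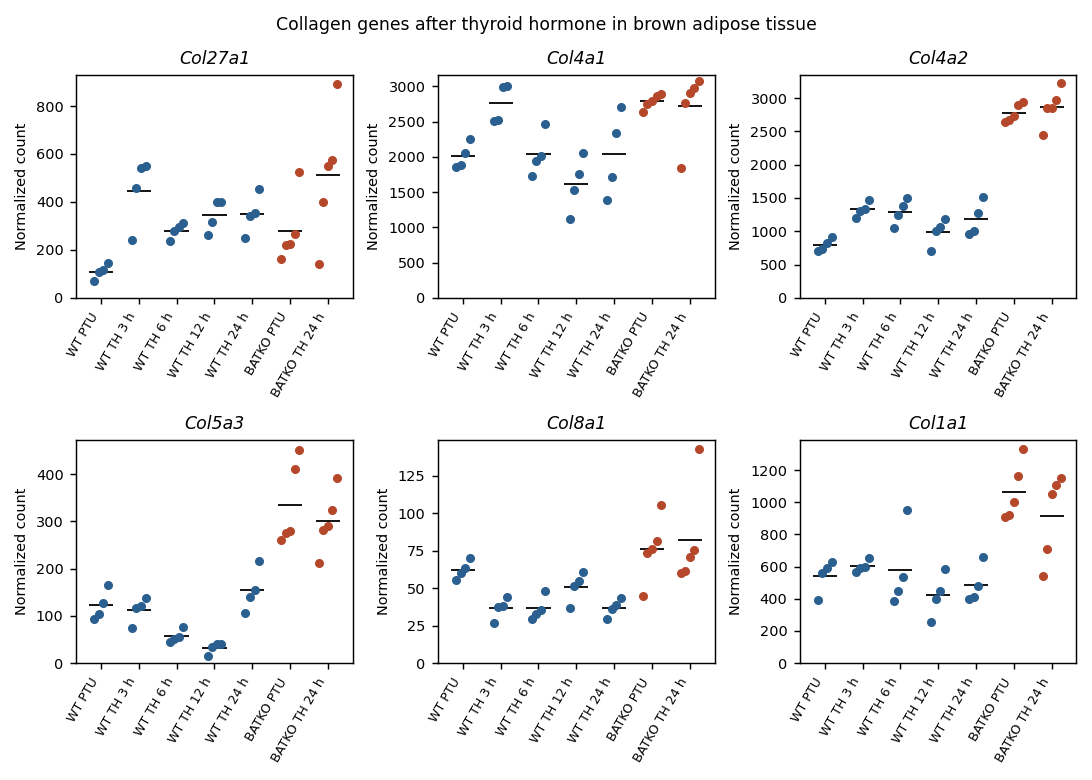
Normalized counts (vertical axes, each from 0) of Col27a1, Col4a1, Col4a2, Col5a3, Col8a1 and Col1a1 in the 7 groups of the TH experiment, with 1 point per mouse, sorted by value, and a line at the group mean (blue, WT; red, BATKO). Col27a1 lies between 68.3 and 147 in WT mice on PTU and between 237 and 549 in all WT mice given TH, while Col5a3 is lowest at 12 h.

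Col27a1 encodes a fibrillar collagen best known from cartilage. In WT mice on PTU it had 68.3, 106, 116 and 147 normalized counts. At 3 h it had 239, 459, 540 and 549, and at 6 h 237, 277, 296 and 311. At 12 h it had 260, 314, 398 and 401, and at 24 h 251, 343, 352 and 454. Every mouse given TH was above every control. The log2 fold changes were 2.01 ± 0.25 at 3 h (SE, edgeR adjusted p = 1.9e-05), 1.35 ± 0.25 at 6 h (0.000508), 1.67 ± 0.25 at 12 h (3.46e-05) and 1.68 ± 0.25 at 24 h (2.36e-05). These calls were kept when each mouse was left out in turn.

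Col5a3, a chain of collagen V that is abundant in fat and muscle, fell at 6 and 12 h. It had 93.0, 104, 127 and 165 normalized counts on PTU and 73.7, 118, 121 and 138 at 3 h. At 6 h it had 45.5, 52.0, 54.3 and 76.3, and at 12 h 15.8, 33.1, 40.1 and 40.1. At 24 h it had 105, 140, 155 and 216 and overlapped with the controls. The log2 fold change was -1.11 ± 0.26 at 6 h (SE, edgeR adjusted p = 0.00371), -1.89 ± 0.28 at 12 h (3.97e-05) and 0.33 ± 0.24 at 24 h (0.315). Col5a1 had log2 fold changes between 0.24 and 0.56 that did not pass the threshold. In the fit of only the groups compared, Col5a1 (0.56, edgeR adjusted p = 0.0333) and the basement membrane zone gene Col15a1 (0.40, 0.0383) passed at 3 h, as Col4a1 did. Col5a2 fell at 24 h, by 0.51 ± 0.17 on the log2 scale (SE, edgeR adjusted p = 0.0291), a call that was lost when any of 4 of the 8 mice was left out.

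Col8a1, a short-chain collagen of vessel walls, fell at 3, 6 and 24 h. It had 55.2, 59.8, 63.4 and 70.2 normalized counts on PTU, 26.5, 37.5, 38.1 and 44.2 at 3 h, and 29.1, 32.6, 35.6 and 48.2 at 6 h. At 12 h it had 36.9, 51.7, 54.7 and 60.5, overlapping with the controls, and at 24 h 29.2, 36.0, 38.9 and 43.7. The log2 fold changes were -0.79 ± 0.20, -0.78 ± 0.20, -0.26 ± 0.19 and -0.76 ± 0.20 at the 4 times (SE), with edgeR adjusted p = 0.0133, 0.0065, 0.345 and 0.00553. The call at 3 h was lost when 1 of the 8 mice was left out.

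The bases in front of Col27a1, Col5a3 and Col8a1 are shown because these genes had the largest changes after TH that spanned more than 1 time point. Each sequence is the 250 bases before the RefSeq start in GRCm38, 5′ to 3′ on the strand of the gene, and capitals mark GGGCGG (the GC box bound by Sp1) or CCAAT on either strand. Col27a1 lies on chromosome 4 from 63214004 to 63334991 (plus strand), and its window is chr4:63215162-63215411, inside the annotated gene. Col5a3 lies on chromosome 9 from 20770050 to 20815067 (minus strand), with the window chr9:20815068-20815317. Col8a1 lies on chromosome 16 from 57624258 to 57754737 (minus strand), with the window chr16:57754738-57754987.
Col27a1: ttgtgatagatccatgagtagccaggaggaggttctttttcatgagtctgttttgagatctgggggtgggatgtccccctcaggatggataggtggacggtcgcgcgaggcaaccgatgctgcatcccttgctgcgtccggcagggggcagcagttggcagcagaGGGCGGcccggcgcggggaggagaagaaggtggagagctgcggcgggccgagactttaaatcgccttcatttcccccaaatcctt
Col5a3: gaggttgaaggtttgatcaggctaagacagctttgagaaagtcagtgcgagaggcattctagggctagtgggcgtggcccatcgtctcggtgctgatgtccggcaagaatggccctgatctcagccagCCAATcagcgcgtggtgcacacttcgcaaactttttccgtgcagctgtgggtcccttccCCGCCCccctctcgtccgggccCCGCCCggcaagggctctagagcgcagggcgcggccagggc
Col8a1: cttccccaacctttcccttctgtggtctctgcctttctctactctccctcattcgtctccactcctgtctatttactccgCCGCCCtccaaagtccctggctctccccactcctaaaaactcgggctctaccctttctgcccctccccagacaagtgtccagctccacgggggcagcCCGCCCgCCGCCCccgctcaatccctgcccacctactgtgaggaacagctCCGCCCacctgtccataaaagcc
None of these windows overlaps an annotated exon. AGGTCA, the core element bound by thyroid hormone receptors, was searched on both strands, alone and as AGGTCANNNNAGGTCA, in which it is repeated after 4 bases. Neither was in the 3 windows. AGGTCA was in the windows of 3 of the 19 members that RefSeq promoters cover, namely Col20a1, Col23a1 and Col4a4, and in 14.0% of the 32851 windows of all genes. The repeat was in none of the 19 members' windows and in 0.0152% of all windows. GGGCGG was in the windows of 11 of 19 members and in 32.7% of all windows, CCAAT in 6 of 19 and 33.8%, and TATAAA in 2 of 19 and 12.4%. A match is a run of letters and was not tested for binding, and sites further away were not searched.

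The 2 major collagen IV chains, which are joined in a molecule of 2 Col4a1 chains and 1 Col4a2 chain, differed in their calls after TH: Col4a2 rose at 3 of the 4 times, and Col4a1 passed the threshold at none of them in the fit of all groups, but did at 3 h in a fit of only the groups compared. Their genes lie head to head on chromosome 8, Col4a1 on the minus strand from 11198423 to 11312826 and Col4a2 on the plus strand from 11312805 to 11449287, so that their annotated starts overlap by 22 bases. Each also overlaps an antisense gene (Gm15418 and Gm15419), and since the strand setting of the counting is not stated, reads of overlapping genes cannot be told apart there. Col4a2 had 710, 731, 828 and 920 normalized counts in WT mice on PTU, 1200, 1311, 1341 and 1473 at 3 h, and 1050, 1250, 1384 and 1497 at 6 h. It had 704, 1004, 1059 and 1180 at 12 h and 952, 1004, 1280 and 1515 at 24 h. The mice at 3, 6 and 24 h were all above the controls, and those at 12 h overlapped with them. Col4a2 rose by log2 fold changes of 0.72 ± 0.16 at 3 h (SE, edgeR adjusted p = 0.00534), 0.68 ± 0.16 at 6 h (0.00328) and 0.57 ± 0.16 at 24 h (0.00761), with 0.31 ± 0.16 at 12 h (0.151).

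Col4a1 had 1856, 1890, 2055 and 2248 normalized counts on PTU, 2512, 2525, 2990 and 3005 at 3 h, and 1733, 1936, 2015 and 2468 at 6 h. It had 1124, 1535, 1759 and 2047 at 12 h and 1387, 1720, 2343 and 2703 at 24 h. Its 3 h mice lay above the controls, and the log2 fold change of 0.43 ± 0.18 (SE, edgeR adjusted p = 0.135) did not pass the threshold, nor did those at 6, 12 and 24 h (0.00, -0.31 and 0.02). In a fit of only the groups compared, the 3 h value of Col4a1 passed (0.43, edgeR adjusted p = 0.0261).

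The ratio of Col4a2 to Col4a1 within a library does not depend on the scaling of the library. It lay between 0.37 and 0.45 in WT mice on PTU, between 0.44 and 0.53 at 3 h, between 0.56 and 0.74 at 6 h, between 0.52 and 0.67 at 12 h and between 0.55 and 0.69 at 24 h. At 6, 12 and 24 h it was higher in 4 of 4 mice than in any control, by 0.69, 0.64 and 0.58 on the log2 scale. The exact two-sided permutation test gave p = 0.0286 at each of these times, the smallest that 4 against 4 mice allow. The ratio was compared in the 9 treatment comparisons for this pair, Col1a1 to Col1a2, and Col6a1 to Col6a2, 27 tests in all chosen after the levels had been seen, and the adjusted p was 0.214 at each of these 3 times. In BATKO mice the ratio was between 0.93 and 1.04 on PTU and between 0.96 and 1.32 at 24 h (exact permutation p = 0.373). The ratio of Col1a1 to Col1a2 was between 0.79 and 1.01 in WT mice on PTU and between 0.74 and 1.02 in all WT mice given TH. That of Col6a1 to Col6a2 was between 0.98 and 1.21 on PTU and between 0.86 and 1.33 after TH. None of the 27 adjusted p-values was below 0.05.

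**Figure D3:**
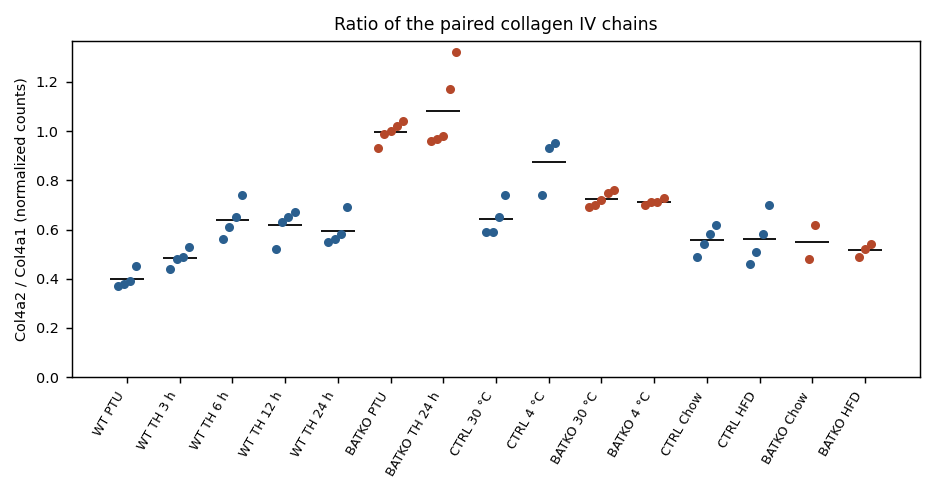
Ratio of the normalized counts of Col4a2 to those of Col4a1 (vertical axis, from 0) in the 15 groups, with 1 point per mouse, sorted by value, and a line at the group mean (blue, WT and CTRL; red, BATKO). WT mice lie between 0.37 and 0.45 on PTU and between 0.52 and 0.74 from 6 to 24 h after TH.

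Of the genes for fibrils and microfilaments, those of collagen I and III did not pass the threshold at any time after TH. Col1a1 had 392, 558, 593 and 629 normalized counts in WT mice on PTU and 255 to 953 in the 16 WT mice given TH. Col1a2 had 477, 586, 671 and 795 on PTU and 334 to 1042 after TH, and Col3a1 916, 1189, 1211 and 1665 on PTU and 623 to 1966 after TH. The treated mice of all 3 genes lay on both sides of the controls. Of the collagen VI chains, Col6a3 had 243, 249, 302 and 325 normalized counts on PTU and 368, 371, 470 and 477 at 3 h. It rose by 0.57 ± 0.17 (SE, log2, edgeR adjusted p = 0.0427), a call that was lost when any of 5 of the 8 mice was left out. Col6a1 had 259, 271, 329 and 364 on PTU and 199, 201, 232 and 298 at 12 h, a log2 fold change of -0.40 ± 0.13 (SE, edgeR adjusted p = 0.0273), with overlapping groups. Col6a2 had 242, 258, 299 and 335 on PTU and 177 to 471 after TH. Col14a1, a fibril-associated collagen, had 40.3, 52.6, 53.1 and 70.3 on PTU and 15.8, 18.3, 38.5 and 43.3 at 12 h, a log2 fold change of -0.88 ± 0.28 (SE, edgeR adjusted p = 0.0247). The calls of Col6a1 and Col14a1 at 12 h were lost in fits of only the 2 groups compared, and when any of 5 and of 3 of the 8 mice was left out.

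In BATKO mice, no collagen gene passed the threshold 24 h after TH. Of 23 members tested, 0 rose and 0 fell, 1 had an unadjusted p under 0.05, and DESeq2 called 0. Over all 14178 genes, 0% rose and 0% fell by edgeR, and 673 had an unadjusted p under 0.05. Among the members, Col27a1 was the gene with the unadjusted p under 0.05. It had 161, 220, 223, 266 and 524 normalized counts on PTU and 142, 398, 548, 575 and 890 at 24 h, with overlapping groups and a log2 fold change of 0.87 ± 0.31 (SE, edgeR adjusted p = 0.963). Col4a2 had 2647, 2676, 2731, 2900 and 2943 on PTU and 2439, 2857, 2859, 2976 and 3228 at 24 h (log2 fold change 0.05 ± 0.13, SE). Col8a1 had 44.4 to 106 on PTU and 60.4 to 143 at 24 h, and Col5a3 261 to 451 and 212 to 393.

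The difference between the 24 h responses of the genotypes was tested as an interaction. In it, genotype and any other difference between the WT and BATKO libraries cannot be told apart. Of the 23 members 0 passed the threshold and 2 had an unadjusted p under 0.05, against 3836 of the 14178 genes tested. Past the threshold, 5.12% of all genes had a more positive and 7.15% a more negative change in BATKO mice. The lowest adjusted p was that of Col4a2, with a log2 difference of -0.53 ± 0.19 (SE, edgeR adjusted p = 0.0656), followed by Col8a1 with 0.87 ± 0.34 (0.0871). DESeq2, by which 6.09% of all genes were more positive and 7.95% more negative, called 1 member, Col4a2 (-0.52, adjusted p = 0.0447), and edgeR called 1 member as more negative in BATKO mice without WT PTU mouse B4 or WT TH 24 h mouse B24 or B26, and 1 as more positive without BATKO PTU mouse 2. For Col27a1 the log2 difference was -0.80 ± 0.49 (SE, edgeR adjusted p = 0.296), so that a difference between the genotypes was not shown for this gene.

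Before TH, BATKO mice on PTU and WT mice on PTU differed in most collagen genes, as in most genes. Of 23 members, 14 were higher and 4 lower in BATKO mice, against 36.4% and 33.9% of all genes. Col11a2 and Col28a1, both among the 14, passed the filter on low counts only in the fit that included the BATKO mice. That choice favours their direction. The labels give no batch, so that genotype and any other difference between the 2 sets of libraries cannot be told apart. Total counts were 14681206 to 18073627 in these BATKO mice and 12022144 to 14615534 in these WT mice. Col4a2 was 1.80 ± 0.14 higher on the log2 scale (SE, edgeR adjusted p = 2.36e-12). Col18a1, the precursor of endostatin, had 21.5, 30.1, 39.2 and 40.7 normalized counts in WT mice and 74.6, 85.3, 86.1, 98.0 and 120 in BATKO mice (log2 difference 1.48 ± 0.19, SE, edgeR adjusted p = 3.88e-08). Col5a3 was 1.46 ± 0.23 higher (1.84e-06), while Col14a1 was lower, at 10.1 to 21.9 against 40.3 to 70.3 (-1.77 ± 0.29, 3.36e-06). Summed markers of fibroblasts and progenitors were 91 to 124 CPM in BATKO and 124 to 188 in WT mice on PTU, with 1 of 8 higher and 5 lower. Brown adipocyte markers were 8587 to 11000 against 12815 to 15203 CPM, with 1 of 6 higher and 5 lower, and endothelial markers 403 to 509 against 319 to 404, with 5 of 7 higher and 1 lower. The part of these cells in the result was not tested.

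Genes whose products act on collagens, in lists drawn up by function, also changed after TH in WT mice. Their counts stand beside the shares of all genes given above, 5.1% higher and 4.09% lower at 3 h and 17.2% and 15.5% at 24 h, and a count near such a share is not particular to a list. Of 7 tested genes for procollagen processing and cross-linking, 4 rose and 0 fell at 3 h, 4 rose and 1 fell at 6 h, 1 rose and 2 fell at 12 h, and 4 rose and 0 fell at 24 h. Loxl1, a lysyl oxidase that cross-links elastin and collagen, rose by log2 fold changes of 3.53 ± 0.22 at 3 h (SE, edgeR adjusted p = 9.29e-10), 4.33 ± 0.23 at 6 h, 4.01 ± 0.23 at 12 h and 4.04 ± 0.23 at 24 h. Pcolce, which speeds up the trimming of procollagen, rose by 0.72 ± 0.17 at 3 h, 0.88 ± 0.17 at 6 h and 1.29 ± 0.17 at 24 h. Lox, the founding member of its family, fell at 6 h (-0.77 ± 0.20) and 12 h (-0.58 ± 0.20) and rose at 24 h (0.59 ± 0.19, edgeR adjusted p = 0.0234), when Pcolce2 also rose (0.74 ± 0.22). The direction for Lox thus turned between 12 and 24 h.

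Of 18 tested genes for modification, folding and secretion, 2 rose and 0 fell at 3 h, 5 rose and 1 fell at 6 h, 5 rose and 2 fell at 12 h, and 7 rose and 1 fell at 24 h. Serpinh1, the collagen chaperone, rose by 0.87 ± 0.14 at 3 h, 0.65 ± 0.14 at 6 h and 1.20 ± 0.14 at 24 h (log2 fold changes with SE), and Colgalt2, which adds galactose to hydroxylysine, by 1.86 ± 0.24, 1.92 ± 0.24 and 1.48 ± 0.25 at these times and by 2.07 ± 0.24 at 12 h. Of 12 tested genes for collagen breakdown and its inhibitors, 2 rose and 0 fell at 3 h, 2 rose and 2 fell at both 6 and 12 h, and 3 rose and 0 fell at 24 h, among them Mmp15 at 24 h (1.59 ± 0.19). Of 5 tested collagen receptors, 1 rose at 3, 6 and 12 h and 2 at 24 h, and 0 fell. Ddr2 rose at each time, by 0.43 to 0.70 on the log2 scale, and Ddr1 rose at 24 h by 1.21 ± 0.30. Of 19 other matrix components tested, 3 rose and 1 fell at 3 h, 3 rose and 3 fell at 6 h, and 2 rose and 6 fell at both 12 and 24 h. Tnxb, which binds collagen fibrils, rose by 1.95 ± 0.18 at 3 h and 2.18 ± 0.18 at 24 h, and the laminin chain Lamb1 fell by 1.05 ± 0.17 at 24 h. Of 12 tested genes of TGF-beta signalling, 0 rose and 4 fell at 3 h, 1 rose and 4 fell at 6 h, 0 rose and 3 fell at 12 h, and 1 rose and 5 fell at 24 h, among them Smad2 (-0.57 ± 0.09 at 3 h). In BATKO mice, none of these list genes passed the threshold by edgeR.

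Cold changed collagen genes in CTRL mice in both directions: relative to most genes, the chains of the main collagen IV rose and most other collagens fell. At 4 °C against 30 °C, 2 of 24 members rose and 15 fell, against 26.5% and 22.6% of the 13267 genes tested. The median log2 fold change of the members was -0.78, against -0.01 for all genes. Of 8 fibrillar collagens, 5 fell and 0 rose, all 3 collagen VI chains fell, and of 5 collagen IV chains 2 rose and 3 fell. Without the 10 mice high in muscle markers, 14 of 24 members passed the threshold, 2 upward and 12 downward. Over fits that each left out 1 mouse, between 11 and 18 members passed it, with 11 (2 upward and 9 downward) without CTRL mouse 2 at 4 °C. Brown adipocyte markers were 6717 to 7798 summed CPM at 30 °C and 17334 to 22906 at 4 °C in these mice, with 5 of 6 higher and 1 lower, and their part in the result was not tested.

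The split between rises and falls in the cold depended on the scaling. TMM, the scaling used here, sets most genes as level, and 1 CPM was worth 13.17 to 15.19 normalized counts in CTRL mice at 4 °C and 8.4 to 11.64 at 30 °C. In BATKO mice it was worth 10.96 to 13.13 at 4 °C and 8.07 to 10.55 at 30 °C. Scaled by library totals alone, the median log2 fold change of all genes was -0.61 in CTRL and -0.41 in BATKO mice, and that of the members -1.36 and -0.81. On that scale 1 member rose and 19 fell in CTRL mice, against 10% and 46.7% of all genes, and 0 rose and 13 fell in BATKO mice, against 8.33% and 37.7%. Col4a2 was the member that still rose in CTRL mice (0.82 ± 0.28, SE, log2, edgeR adjusted p = 0.0186). Col4a1 no longer passed the threshold in CTRL (0.39, 0.149) or BATKO mice (0.12, 0.658), nor did Col12a1 (0.46, 0.246) and Col14a1 (0.85, 0.125) in BATKO mice. The members that fell with TMM also fell on this scale. In CTRL mice Col15a1 (-1.25, edgeR adjusted p = 0.0182), Col1a1 (-1.0, 0.00666), Col14a1 (-1.77, 0.00938) and Col8a1 (-0.95, 0.0288) fell on this scale and did not pass with TMM. In BATKO mice this held for Col4a3, Col5a1, Col5a3 and Col6a3. The other cold values, those of the gene lists included, are on the TMM scale unless stated.

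**Figure D4:**
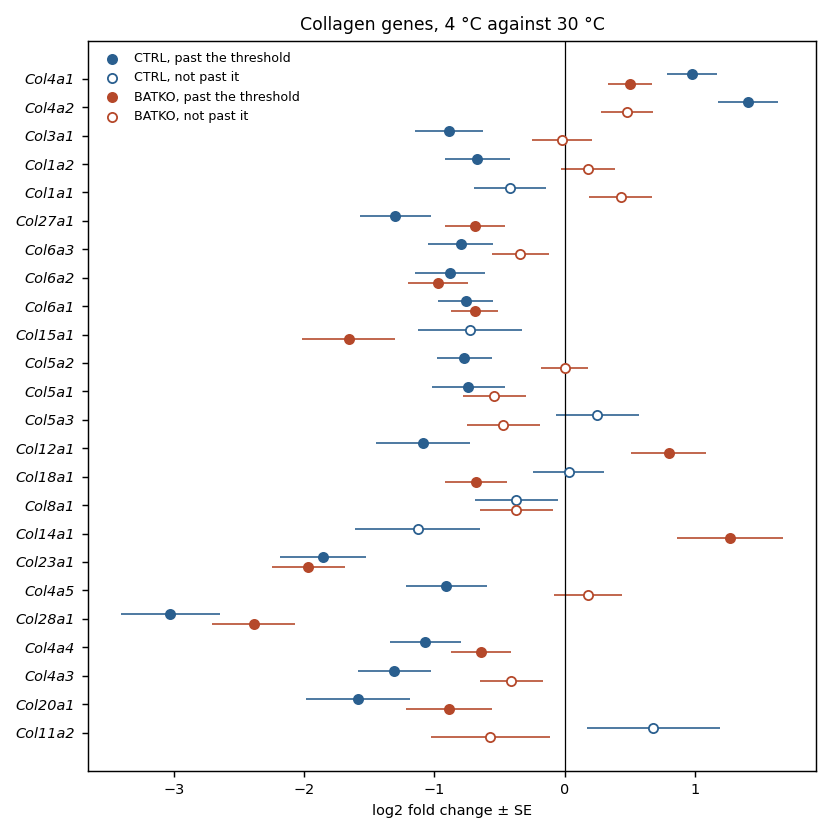
Log2 fold changes with SE (horizontal axis) of the 24 collagen genes at 4 °C against 30 °C in CTRL (blue, 3 against 4 mice) and BATKO mice (red, 4 against 5 mice), in order of mean count from the top. Filled points passed the threshold. Col4a1 and Col4a2 lie to the right of 0 in both genotypes, and Col28a1 and Col23a1 lie furthest to the left.

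Col4a1 had 3040, 4284, 4599 and 4756 normalized counts in CTRL mice at 30 °C and 8026, 8188 and 8439 at 4 °C. Col4a2 had 1790, 2514, 3091 and 3420 at 30 °C and 5910, 7819 and 7838 at 4 °C. All cold mice were above all warm mice for both genes. The log2 fold changes were 0.98 ± 0.19 for Col4a1 (SE, edgeR adjusted p = 0.000445) and 1.41 ± 0.23 for Col4a2 (9.73e-05). The rare chains of collagen IV, known from the kidney glomerulus, went the other way: Col4a3 fell by 1.31 ± 0.28, Col4a4 by 1.07 ± 0.27 and Col4a5 by 0.91 ± 0.31 on the log2 scale. Col4a3 and Col4a4 lie head to head on chromosome 1, 71 bases apart. Col4a4 had 30.7, 36.5, 42.6 and 50.7 normalized counts at 30 °C and 18.4, 18.7 and 20.0 at 4 °C.

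The largest fall was that of Col28a1. It had 28.01, 43.3, 44.4 and 49.5 normalized counts in CTRL mice at 30 °C and 2.45, 5.34 and 7.00 at 4 °C, a log2 fold change of -3.03 ± 0.38 (SE, edgeR adjusted p = 8.55e-06). The lowest cold mouse had 2 raw reads, below the 3 counts taken as a floor. In BATKO mice it had 20.8, 24.7, 26.6, 41.3 and 42.0 at 30 °C and 4.78, 5.89, 6.14 and 6.49 at 4 °C (-2.39 ± 0.32, 2.97e-05). No cold mouse reached any warm mouse in either genotype.
Col28a1: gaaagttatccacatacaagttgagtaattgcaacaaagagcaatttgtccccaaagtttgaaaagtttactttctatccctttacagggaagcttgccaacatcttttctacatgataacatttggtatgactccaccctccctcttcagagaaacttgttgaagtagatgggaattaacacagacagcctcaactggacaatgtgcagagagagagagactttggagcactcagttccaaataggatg
The sequence is shown because Col28a1 changed most with temperature, and it is the 250 bases before the RefSeq start on the minus strand of chromosome 6 (window chr6:8192618-8192867 in GRCm38, 40.4% G and C). It has no capitals, since none of the motifs named above was found in it, and it overlaps no annotated exon.

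Col23a1, a transmembrane collagen, had 37.3, 38.9, 48.7 and 64.4 normalized counts in CTRL mice at 30 °C and 8.17, 14.7 and 16.0 at 4 °C. In BATKO mice it had 47.7, 53.0, 54.4, 60.7 and 65.5 at 30 °C and 9.20, 10.8, 14.1 and 23.6 at 4 °C. The groups did not overlap in either genotype, and the log2 fold changes were -1.86 ± 0.33 (SE, edgeR adjusted p = 0.000189) and -1.97 ± 0.28 (4.47e-05). Col27a1 had 1313, 1482, 1519 and 2885 at 30 °C and 549, 761 and 877 at 4 °C in CTRL mice, and 1529, 1557, 1882, 1921 and 1988 at 30 °C and 839, 882, 1146 and 1521 at 4 °C in BATKO mice. It fell in both, by 1.30 ± 0.27 and 0.69 ± 0.23 on the log2 scale, whereas it had risen after TH in WT mice. The call in BATKO mice was lost when either of 2 of the 9 mice was left out and without mice high in muscle markers (-0.62, edgeR adjusted p = 0.128). Col20a1, a fibril-associated collagen, fell by 1.59 ± 0.40 in CTRL and 0.89 ± 0.33 in BATKO mice, where the call was lost when any of 7 of the 9 mice was left out.

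Among the fibril genes of CTRL mice, Col3a1 had 1828, 2001, 2215 and 2519 normalized counts at 30 °C and 1057, 1179 and 1228 at 4 °C, a log2 fold change of -0.89 ± 0.26 (SE, edgeR adjusted p = 0.010). Col1a2 had 930, 1164, 1168 and 1430 at 30 °C and 733, 738 and 740 at 4 °C (-0.67 ± 0.25, 0.0333), a call lost when any of 5 of the 7 mice was left out. Col1a1 had 665, 968, 1009 and 1093 at 30 °C and 657, 706 and 737 at 4 °C, with overlapping groups (-0.42 ± 0.28, 0.226). Col5a1 and Col5a2 fell by 0.74 ± 0.28 and 0.77 ± 0.21, and Col5a3 did not pass the threshold (0.25 ± 0.32). The collagen VI chains fell by 0.76 ± 0.21 (Col6a1), 0.88 ± 0.27 (Col6a2) and 0.80 ± 0.25 (Col6a3). The calls of Col5a1 and Col6a3 were lost when any of 4 and of 3 of the 7 mice was left out, and those of Col6a2, Col12a1 and Col4a5 each with any of 2. Without mice high in muscle markers, and so with fewer mice, Col1a2, Col5a1, Col6a3 and Col4a5 no longer passed the threshold (edgeR adjusted p = 0.0631, 0.107, 0.0571 and 0.0516). Their log2 fold changes were then -0.66, -0.68, -0.69 and -0.97. Col6a3 had 851, 903, 1121 and 1501 at 30 °C and 557, 572 and 752 at 4 °C. As summed normalized counts, fibroblast and progenitor markers were 2148 to 2840 at 30 °C and 2270 to 3469 at 4 °C in these mice, with 1 of 7 higher and 1 lower, and endothelial markers 6018 to 7606 and 6470.0 to 7401, with 2 of 7 higher and 2 lower. In CPM both sums were lower in the cold by their medians. Mural and smooth muscle markers were 3748 to 5017 and 3918 to 4279 normalized counts, or 431 to 530 and 258 to 325 CPM, with 4 of 6 higher by edgeR, among them Acta2 (1.07 ± 0.20) and Cnn1 (1.98 ± 0.43), and 1 lower, Rgs5 (-0.97 ± 0.19). Their part in these changes, and in the rise of Col4a1 and Col4a2, was not tested.

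In BATKO mice, 3 of 24 members rose and 9 fell in the cold, against 21.4% and 18.9% of all genes, and the median log2 fold change was -0.44. Without mice high in muscle markers 8 passed the threshold, and between 7 and 11 did so when a mouse was left out, with 7 without BATKO mouse 8 or 12 at 4 °C. Col4a1 had 3429, 3734, 4345, 4439 and 6164 normalized counts at 30 °C and 5516, 5961, 6636 and 6922 at 4 °C, and rose by 0.50 ± 0.17 (SE, log2, edgeR adjusted p = 0.0242), a call lost when any of 4 of the 9 mice was left out. Col4a2 had 2351, 2608, 3197, 3297 and 4608 and 3911, 4225, 4868 and 4870 (0.48 ± 0.20, 0.070). Col15a1, a multiplexin of the basement membrane zone, had 608, 686, 930, 1016 and 1111 at 30 °C and 128, 177, 332 and 464 at 4 °C, with no overlap (-1.66 ± 0.36, 0.00166). In CTRL mice Col15a1 had 425, 466, 803 and 842 and 232, 344 and 570 (-0.73 ± 0.40, 0.141), and its fall passed only when scaled by library totals (-1.25, edgeR adjusted p = 0.0182). Col18a1 fell by 0.68 ± 0.24 in BATKO mice and had 66.6 to 103 and 51.4 to 132 normalized counts in CTRL mice. Col6a1 and Col6a2 fell by 0.69 ± 0.18 and 0.97 ± 0.23, and Col4a4 by 0.64 ± 0.23. The calls of Col18a1 and Col4a4 were lost when any of 6 and of 5 of the 9 mice was left out. They were also lost without mice high in muscle markers, where the log2 fold changes were -0.75 and -0.85 (edgeR adjusted p = 0.081 and 0.0542). Col1a1, Col1a2 and Col3a1 had log2 fold changes of 0.43, 0.18 and -0.02 that did not pass the threshold. In these mice brown adipocyte markers were 62763 to 76165 summed normalized counts at 30 °C and 179768 to 271419 at 4 °C, with 5 of 6 higher, among them Ucp1 (3.43 ± 0.44). Endothelial markers were 6618 to 9099 and 5395 to 7140, with 1 of 7 higher and 3 lower. Fibroblast and progenitor markers were 2258 to 3051 and 2166 to 2988 (234 to 374 and 165 to 256 CPM), with 1 of 7 higher and 1 lower. Mural and smooth muscle markers were 4460 to 5347 and 3337 to 4856, with 2 of 6 higher and 1 lower, and macrophage and leukocyte markers 391 to 513 and 464.5 to 719.9, with 2 of 6 higher. The part of these cells in the changes was not tested.

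Col12a1 and Col14a1, which encode related collagens that attach to the surface of fibrils, rose in the cold in BATKO mice on the TMM scale but did not pass the threshold when scaled by library totals. Col12a1 had 34.1, 86.7, 102, 109 and 126 normalized counts at 30 °C and 120, 130, 176 and 214 at 4 °C in BATKO mice (0.80 ± 0.29, SE, log2, edgeR adjusted p = 0.0381). This call was lost when any of 4 of the 9 mice was left out and without mice high in muscle markers, where the log2 fold change was 0.53 (edgeR adjusted p = 0.189). In CTRL mice it had 80.3, 84.9, 102 and 159 at 30 °C and 41.4, 53.7 and 55.2 at 4 °C (-1.09 ± 0.36, 0.0204). Col14a1 had 5.68, 11.9, 13.3, 14.1 and 19.9 at 30 °C and 17.9, 24.5, 35.3 and 48.7 at 4 °C in BATKO mice (1.27 ± 0.41, 0.0202, lost when either of 2 of the 9 mice was left out), and 15.8, 19.0, 31.3 and 60.8 and 14.0, 14.7 and 14.7 in CTRL mice (-1.13 ± 0.48, 0.0614). The fall in CTRL mice passed by DESeq2 (-1.15, adjusted p = 0.0462). By edgeR it passed without mice high in muscle markers (-1.42, adjusted p = 0.0482) and when scaled by library totals (-1.77, 0.00938). The test of the difference between these cold responses gave 1.89 ± 0.47 for Col12a1 (edgeR adjusted p = 0.0586) and 2.40 ± 0.63 for Col14a1 (0.0728), and 0 of 24 members passed the threshold. Of all genes, 0.317% had a more positive and 0.807% a more negative response in BATKO mice. An unadjusted p under 0.05 was found for 9 members and for 2471 of the 13267 genes tested. EdgeR called 1 without CTRL mouse 5 at 4 °C or BATKO mouse 13 at 30 °C, and 1, Col12a1, without the filter on low counts. DESeq2 called 3, namely Col12a1 (adjusted p = 0.00484), Col14a1 (0.0130) and Col4a2 (-0.94, 0.0412), and by DESeq2 1.52% of all genes had a more positive and 3.7% a more negative response.

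Comparing genotypes at one temperature, Col12a1 was the only member past the threshold at 4 °C, by 1.67 ± 0.37 higher in BATKO mice on the log2 scale (SE, edgeR adjusted p = 0.0277). Of all genes, 0.957% were higher and 1.2% lower. The call of Col12a1 was lost without CTRL mouse 1 or 2 or BATKO mouse 12 at 4 °C. DESeq2, by which 1.6% of all genes were higher and 3.32% lower, added Col4a2, lower by 0.72 (adjusted p = 0.0393). At 30 °C, 0 of 24 members differed by edgeR and 0 by DESeq2, and 0.00754% of all genes were higher and 0% lower in BATKO mice. An unadjusted p under 0.05 was found for 2 members (Col14a1 and Col18a1) and for 1209 of the 13267 genes tested.

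Of the genes that act on collagens, Loxl1 rose in the cold in both genotypes, by log2 fold changes of 3.48 ± 0.27 in CTRL (SE, edgeR adjusted p = 9.79e-08) and 2.35 ± 0.23 in BATKO mice (1.9e-06), and was 1.17 ± 0.25 lower in BATKO than in CTRL mice at 4 °C (0.0252). Of all genes, 26.5% rose and 22.6% fell in CTRL mice and 21.4% and 18.9% in BATKO mice, and several list counts lay near these shares. Of 8 tested genes for processing and cross-linking, 1 rose and 2 fell in CTRL mice and 1 rose and 1 fell in BATKO mice. Of 18 for modification, folding and secretion, 4 rose and 7 fell in CTRL mice and 1 rose and 5 fell in BATKO mice. Crtap, a partner of the prolyl 3-hydroxylases, fell by 1.16 ± 0.17 and 0.76 ± 0.15, and P4ha2, a prolyl 4-hydroxylase subunit, rose by 1.24 ± 0.27 in CTRL mice. Of 7 receptors, 0 rose and 3 fell in each genotype, namely Itga1, Ddr1 and Lair1. Of 20 other matrix components, 1 rose and 12 fell in CTRL mice and 3 rose and 9 fell in BATKO mice. Eln, which encodes elastin, rose by 1.96 ± 0.31 and 1.24 ± 0.27, and Lum, a fibril-binding proteoglycan, fell by 1.81 ± 0.27 in CTRL mice. Of 11 genes for breakdown and its inhibitors, 2 rose and 3 fell in CTRL and 1 rose and 2 fell in BATKO mice. The protease gene Mmp19 rose by 1.61 ± 0.19 and 1.74 ± 0.16. Of 12 genes of TGF-beta signalling, 1 rose and 4 fell in CTRL mice and 0 rose and 4 fell in BATKO mice, among them Tgfbr3 (-1.66 ± 0.15 and -0.84 ± 0.13).

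On HFD, collagen genes rose in CTRL mice. Of 22 members tested, 10 rose and 0 fell, against 1.89% and 2.04% of the 12932 genes tested, and the median log2 fold change was 0.60, against 0.01 for all genes. The 10 genes were Col12a1, Col5a3, Col1a1, Col6a3, Col1a2, Col6a2, Col6a1, Col5a1, Col4a2 and Col4a1. In each of these every HFD mouse lay above every chow mouse. As the genes were picked by the test on the same mice, this is no further support, and the share of all genes separated in this way is not given. All 3 collagen VI chains, 4 of 7 fibrillar collagens and 2 of 5 collagen IV chains were among the 10. This count depended on a few mice: without the mice high in muscle markers, which removes 2 of the 4 CTRL mice on chow, only Col12a1 passed the threshold. The log2 fold changes of the 10 genes were then between 0.51 and 1.94. The count was 2 without CTRL chow mouse 2, 3 without CTRL chow mouse 4 and 5 without CTRL HFD mouse 10.

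**Figure D5:**
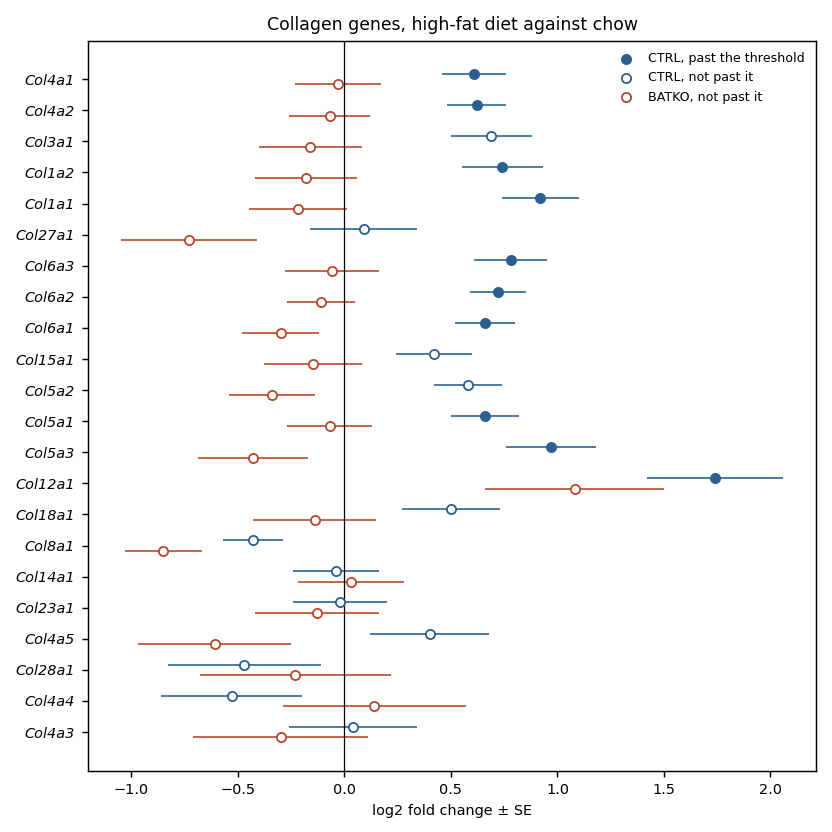
Log2 fold changes with SE (horizontal axis) of the 22 collagen genes tested on HFD against chow, in CTRL (blue, 4 against 4 mice) and BATKO mice (red, 3 against 2 mice), in order of mean count from the top. Filled points passed the threshold, which no gene did in BATKO mice, and Col12a1 lies furthest to the right in both genotypes.

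Col12a1 rose most. It had 67.8, 106, 113 and 118 normalized counts in CTRL mice on chow and 122, 296, 436 and 498 on HFD, a log2 fold change of 1.74 ± 0.32 (SE, edgeR adjusted p = 0.011). Col6a2 had 664, 704, 728 and 841 on chow and 1080, 1088, 1109 and 1551 on HFD (0.72 ± 0.13, 0.00849). Col1a1 had 503, 591, 602 and 812 on chow and 991, 1012, 1087 and 1656 on HFD (0.92 ± 0.18, 0.0142). Of the 4 HFD mice, the highest was the same animal, mouse 10, for all 10 genes past the threshold. The other collagen I chain, Col1a2, had 696, 800, 943 and 1177 and 1196, 1293, 1443 and 2119 (0.74 ± 0.19, 0.0399). Col5a3 had 121, 125, 128 and 150 and 178, 225, 235 and 386 (0.97 ± 0.21, 0.0242).

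The other collagen VI chains rose to a like degree. Col6a3 had 809, 844, 944 and 1127 normalized counts on chow and 1295, 1381, 1417 and 2309 on HFD (0.78 ± 0.17, SE, log2, edgeR adjusted p = 0.0237). Col6a1 had 534, 607, 610 and 660 and 763, 872, 946 and 1241 (0.66 ± 0.14, 0.0233). Of the collagen IV chains, Col4a1 had 2945, 3034, 3089 and 3161 on chow and 3843, 4420, 4631 and 5720 on HFD (0.61 ± 0.15, 0.0412), and Col4a2 1563, 1631, 1711 and 1906 and 2143, 2267, 2687 and 3340 (0.62 ± 0.14, 0.0307). The call of Col4a1 was lost when any of 7 of the 8 mice was left out, that of Col1a2 with any of 6, those of Col4a2 and Col5a1 with any of 4, that of Col6a1 with any of 3, those of Col5a3 and Col6a3 with any of 2, and that of Col1a1 with 1. Those of Col6a2 and Col12a1 were lost with none. The ratio of Col4a2 to Col4a1 was between 0.49 and 0.62 on chow and between 0.46 and 0.70 on HFD. Col3a1 had 1604, 1911, 2435 and 3147 and 3019, 3500, 3528 and 4677, with overlapping groups, and missed the threshold (0.69 ± 0.19, 0.0506). It passed by DESeq2 (adjusted p = 0.00674) and by edgeR with a mean above 50 (0.0442) or no filter (0.000508), and not when scaled by library totals (0.0677). Col27a1, Col14a1 and Col23a1 had log2 fold changes of 0.09, -0.04 and -0.02. Col27a1 had 465, 762, 991 and 1417 on chow and 738, 907, 1017 and 1211 on HFD. Fibroblast and progenitor markers were 220 to 350 summed CPM on chow and 411 to 524 on HFD, with 1 of 8 higher past the threshold (Dpt). Macrophage and leukocyte markers were 47.5 to 60.8 and 60.9 to 157.9 CPM, with 0 of 6 past it. Endothelial markers were 586 to 708 and 495 to 698 CPM, with 0 of 7 past it. The part of these cells in the rise was not tested.

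In BATKO mice, 0 of 22 members passed the threshold on HFD against chow, in a comparison of 3 with 2 mice in which 0.0309% of all genes rose and 0.0387% fell. An unadjusted p under 0.05 was found for 1996 of the 12932 genes tested and for 3 members: Col8a1 (-0.85 ± 0.18, SE, log2, edgeR adjusted p = 0.083), Col12a1 (1.08 ± 0.42, 0.256) and Col27a1 (-0.73 ± 0.32, 0.298). DESeq2 called Col8a1 (adjusted p = 0.0231), with 0.977% of all genes higher and 1.09% lower by that tool. Col8a1 had 84.2 and 91.7 normalized counts on chow and 43.3, 48.0 and 55.5 on HFD. In CTRL mice it had 71.7, 80.9, 87.3 and 89.9 and 52.5, 59.8, 64.2 and 68.2 (-0.43 ± 0.14, 0.102). Col12a1 had 142 and 147 on chow and 253, 279 and 380 on HFD. Col1a1 had 1257 and 1592 on chow and 1089, 1202 and 1390 on HFD, Col3a1 4061 and 4504 and 3286, 3971 and 4239, and Col6a2 1310 and 1358 and 1129, 1229 and 1360.

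In the BATKO mice on chow against the CTRL mice on chow, the median log2 difference of the 22 members was 0.59, against -0.03 for all genes. All members were read in the same 2 BATKO and 4 CTRL mice. By edgeR 0 members passed the threshold and 13 had an unadjusted p under 0.05, against 1024 of the 12932 genes tested. DESeq2 called 9 members, all higher in BATKO mice, where by DESeq2 0.248% of all genes were higher and 0.00775% lower. EdgeR called 11 without the filter on low counts and 6 in a fit of only these 2 groups, settings for which no share of all genes is given. Without the filter the edgeR adjusted p of Col1a1 went from 0.312 to 3.02e-06 at the same log2 difference of 1.18, so the calls moved with the setting. Of all genes, 0% were higher and 0% lower by edgeR. Both BATKO mice were above all 4 CTRL mice for Col1a1 (1.18 ± 0.21, SE, log2, edgeR adjusted p = 0.312), Col6a2 (0.86 ± 0.15, 0.312), Col5a3 (1.14 ± 0.25, 0.312) and Col3a1 (0.91 ± 0.22, 0.312). Muscle markers were 64.5 to 323.8 summed CPM in these 2 BATKO mice and 12 to 2230 in the CTRL mice on chow. Macrophage and leukocyte markers were 89.7 to 118.2 and 47.5 to 60.8 CPM, without overlap, and 0 of 6 passed the threshold. Fibroblast and progenitor markers were 251 to 321 and 220 to 350 CPM, with 0 of 8 past it. The part of these cells in the differences was not tested. On HFD, 0 of 22 members differed between genotypes by edgeR and 0 by DESeq2, and 0% of all genes were higher and 0% lower by edgeR. An unadjusted p under 0.05 was found for 1 member (Col14a1) and for 691 of the 12932 genes tested. The test of the difference between the HFD responses passed the threshold for 0 members by edgeR and 0 by DESeq2, with 0% of all genes called in either direction. An unadjusted p under 0.05 was found for 12 members and for 740 of the 12932 genes tested. The median log2 difference was -0.70 for the members, against 0.02 for all genes. The lowest adjusted p of this test over the members was 0.721 by edgeR, and a difference was not shown. EdgeR called 8 members without the filter on low counts, again with no share of all genes given.

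Of the genes that act on collagens, 4 of 18 for modification, folding and secretion rose in CTRL mice on HFD and 0 fell, beside 1.89% and 2.04% of all genes. Serpinh1 rose by 0.96 ± 0.15 (SE, log2, edgeR adjusted p = 0.00481), the lysyl hydroxylase gene Plod2 by 0.79 ± 0.16 and Fkbp10, which assists collagen folding, by 0.94 ± 0.23. Of 8 for processing and cross-linking, 4 rose and 0 fell, among them Adamts2 (1.02 ± 0.15), which removes the amino-terminal propeptide, Pcolce (1.11 ± 0.23) and Lox (0.85 ± 0.20). Of 19 other matrix components 3 rose (Sparc, Bgn and Eln) and 0 fell, and of 12 genes for breakdown and 6 receptors none passed the threshold by edgeR. In BATKO mice, 0 genes of these lists passed it on HFD.

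The other members are given by their range. Col5a2 had 193 to 355 normalized counts in WT mice on PTU and 161 to 296 after TH, and Col5a1 81.3 to 126 and 90.8 to 180. Col4a5 was between 8 and 56 raw counts in all 59 mice, Col4a4 between 4 and 49 and Col4a3 between 4 and 51. Col11a2, a chain of cartilage collagen XI, was between 2 and 32 raw counts, and Col20a1 was between 0 and 36, at 0 in 1 mouse. At this depth, a change of such a gene by less than the spread between mice was not detectable. In the TH experiment, Col11a2 passed the filter on low counts only in the fit that included the BATKO mice. It was higher in BATKO than in WT mice on PTU (1.80 ± 0.42, SE, log2). As the filter favours this direction, the value is given with no test. In no other comparison did Col11a2 pass the threshold. The 20 matching genes below the limit together held 0.376% of the counts of the 44.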

How the data were processed

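RNA of BAT from 59 mice was sequenced on a NextSeq 500 after library preparation with a total RNA SENSE kit. Per the labels and the study's methods, the authors aligned reads with Bowtie2 (version 2.3.2.2 in the submitters' processing notes) to GRCm38, removed reads with an alignment quality below 10, and deposited raw counts per gene made with htseqcount, in 1 table for each of 3 experiments. The annotation and the strand setting of the counting are not given in the sources used here. Of the symbols, 14 had been turned into dates, with 0.0323% of the counts.

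Groups were taken from the labels. Counts were tested with edgeR 4.0.16 (quasi-likelihood test, TMM scaling, R 4.3.3) on genes whose normalized counts averaged over 10, and p-values were adjusted by Benjamini-Hochberg over all genes tested, with 0.05 as the threshold. The WT time course was fitted on 20 mice, other tests of the TH experiment on 30, the temperature experiment on 16 and the diet experiment on 13. Normalized counts of the TH experiment are scaled over its 30 mice, those of the other experiments over their own mice. SE is the size of the log2 fold change divided by the root of F. Total counts of 7612059 to 18073627 per mouse set the precision of rare genes, and a floor of 3 counts covers counting error only. The fits were tested on simulated data.

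Members, lists and tests were chosen with earlier results of these data known. Levels in every mouse are given in 1 or more experiments for the 10 members with the highest mean count and for the 3 called members with the lowest adjusted p in each comparison. The same was set for members past the threshold in a test of a difference between responses. Elsewhere these members are given by a range or a fold change, or not at all. Some further members are given in the same way and were chosen after their values were seen. Of each other list, at most the 3 called genes with the lowest adjusted p in a comparison are named. Exceptions chosen after their values were seen are genes followed over several times or both genotypes. Of the listed symbols, Ctage5 and Ctgf were not found in the tables. Alternatives were DESeq2 1.42.0 (another test with its own size factors), no filter or a mean above 50, a fit of only the groups compared, leaving out each mouse, and, added after the data were seen, a fit of all 30 mice, scaling by library totals and leaving out mice high in muscle markers. Ratios of chains were compared by exact permutation tests, also added later. Promoters are RefSeq windows of GRCm38.p6. Those of Col4a3, Col5a2, Col12a1, Col1a1 and Col14a1 were not used here. Results of some listed genes are not reported here.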

Additional observations from a re-analysis of the deposited data

Results flagged for a closer look

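Among the 17 members described in most detail, the highest or lowest mouse of a group of 4 or 5 was checked for standing apart by Dixon's criterion, and 12 of 204 such checks were positive, where chance gives about 1 in 20. CTRL HFD mouse 10 was highest in 3 of them: Col1a1 at 1656 normalized counts against 991 to 1087 in the other mice of its group, Col6a3 at 2309 against 1295 to 1417 (1416.5), and Col6a2 at 1551 against 1080 to 1109. Without this mouse 5 members passed the threshold in CTRL mice on HFD in place of 10. CTRL HFD mouse 7 had 68.2 normalized counts of Col23a1 against 32.4 to 37.9.

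In the TH experiment, Col4a1 was lowest in BATKO TH 24 h mouse 8, at 1848 normalized counts against 2769.8 to 3069.9. Col3a1 was highest in WT TH 6 h mouse B12, at 1966 against 809 to 1007, and Col1a2 in WT TH 3 h mouse B11, at 732 against 639 to 648. Col27a1 was highest in BATKO PTU mouse 4, at 524 against 161 to 266, and Col8a1 in BATKO TH 24 h mouse 10, at 143 against 60.4 to 75.4. Col12a1 was highest in WT TH 24 h mouse B28, at 138.7 against 82.4 to 87.9. In the temperature experiment, Col3a1 was highest in BATKO 4 °C mouse 7, at 2944 against 1135 to 1428, and Col27a1 in CTRL 30 °C mouse 19, at 2885 against 1313 to 1519.

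The 24 h response to TH differed between genotypes for 3 of 18 genes for modification, folding and secretion, 3 of 8 for processing and cross-linking, 1 of 11 for breakdown, 1 of 5 receptors, 2 of 20 other matrix components and 1 of 12 genes of TGF-beta signalling. Of all genes, 5.12% had a more positive and 7.15% a more negative change in BATKO mice. Genotype and any other difference between the WT and BATKO libraries, such as their total counts, cannot be told apart here. As the log2 change in BATKO mice minus that in WT mice, with edgeR's adjusted p, the differences were -1.22 for Serpinh1 (0.0049), -0.73 for Plod1 (0.0196) and 0.42 for Mia3 (0.0208). They were -3.38 for Loxl1 (0.000238), -1.16 for Pcolce (0.0011) and -0.78 for Lox (0.0456). They were -1.41 for Mmp15 (0.00713), -1.52 for Ddr1 (0.00777), -1.09 for Hspg2 (0.00287), -1.81 for Tnxb (0.0115) and 0.40 for Smad2 (0.036). In the cold, 1 of 20 other matrix components and 1 of 12 genes of TGF-beta signalling differed, against 0.317% and 0.807% of all genes in the 2 directions, and the difference between BATKO and CTRL mice was 1.15 for Postn (edgeR adjusted p = 0.0323) and 0.82 for Tgfbr3 (0.0487).

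Col10a1, a collagen of growth plate cartilage whose mean was below the limit for members, had 0 to 2 raw counts in WT mice on PTU and 12 to 36 at 12 h after TH, with a fitted log2 fold change of 5.63. It had 4 to 21 raw counts at 6 h and 6 to 16 at 24 h. It passed the filter on low counts only through the groups after TH, and its controls lie below the floor of 3 counts, so that the fitted value depends on the prior count, is no bound and is given with no test. In BATKO mice it had 0 to 2 raw counts on PTU and 0 to 1 at 24 h. In the cold it had 4 to 12 raw counts in CTRL and 1 to 9 in BATKO mice, and 0 in every mouse at 30 °C. The gene lies within Nt5dc1 on the opposite strand, and since the strand setting is not stated, reads of the pair cannot be told apart.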

How the results depend on the processing

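No paired analysis was possible because the groups compared in an experiment share no replicate number, and the numbers name different mice. Of 1116 alternative values of 74 named fold changes past the threshold, 951 stayed past it in the same direction, 165 no longer passed it and 0 reversed. Fits without 1 mouse gave 603 of the 1116 values. Of 140 counts of members past the threshold, which do not include the fits without 1 mouse, 17 differed from the count given by over 1.5 times. The counts of the fits without 1 mouse are given at the end of this paragraph, and some of them moved as far. With DESeq2 the count was 1 for the difference of the TH responses, 2 for BATKO against CTRL at 4 °C, 3 for the difference of the cold responses, 1 for BATKO HFD and 9 for BATKO against CTRL on chow. Without a filter on low counts it was 1 for the difference of the cold responses, 1 for BATKO HFD, 11 for BATKO against CTRL on chow and 8 for the difference of the HFD responses. More genes were tested in these fits, and no share of all genes is given for them. With a mean above 50, which leaves fewer members, it was 11 in CTRL and 7 in BATKO mice in the cold. In fits of only the groups compared it was 7 for WT 3 h, with Col4a1, Col5a1 and Col15a1 beside the 4, 2 for WT 12 h and 6 for BATKO against CTRL on chow. In a fit of all 30 mice it was 2 for WT 3 h. Without mice high in muscle markers it was 1 for CTRL HFD. Scaled by library totals, an alternative added after the data were seen, it was 7 for WT 6 h, where the median of all genes was 0.17. On that scale Col6a3 at 3 h, Col6a1 at 12 h and Col5a2 at 24 h after TH no longer passed the threshold, with log2 fold changes of 0.65, -0.42 and -0.33. Nor did Col1a2, Col4a1 and Col5a1 on HFD (0.76, 0.62 and 0.67), and Col28a1, Col4a1, Col4a5 and Col5a1 between the genotypes on PTU (0.95, 0.39, 0.48 and 0.48). Other causes of these differences were not tested. Leaving out 1 mouse at a time gave counts of 3 to 4 for WT 3 h, 4 to 7 for 6 h, 2 to 7 for 12 h and 3 to 5 for 24 h, 0 to 1 for the difference of the TH responses and 13 to 18 for BATKO against WT on PTU. It gave 11 to 18 for CTRL and 7 to 11 for BATKO mice in the cold, 0 to 1 for BATKO against CTRL at 4 °C, 0 to 1 for the difference of the cold responses and 2 to 11 for CTRL HFD, and 0 to 0 for the other comparisons. Where BATKO chow was left with 1 mouse, that mouse was assumed to vary like the other groups. Members with a mean near the limit, such as Col20a1 and Col11a2, are limited by depth.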
